A study of Mus musculus with 6 samples.

Results

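The Hippo pathway group described here comprised 10 genes, taken by name from the 23159 genes of the deposited count table: the transcriptional co-activators *Yap1* and *Wwtr1* (which encodes TAZ), the DNA-binding factors *Tead1*, *Tead2*, *Tead3* and *Tead4*, the kinases *Lats1* and *Lats2*, and the target genes *Ctgf* and *Cyr61*. All 10 were rows of the table, and 9 of them were among the 13728 genes with enough counts to be tested. *Tead2* was not. The genes were compared between slow-cycling, label-retaining chondrocytes (LRCs) and the more rapidly dividing non-LRCs of the mouse growth plate, measured by RNA-seq in 3 independent experiments with 1 library of each population, so that 6 libraries formed 3 pairs. Both populations came from the same mice at postnatal day (P) 49. These mice were homozygous for 4 alleles: a Col2a1-tTA transactivator at *Peli2*, a TRE-H2B-GFP cassette at *Col1a1*, the Col2a1-creER transgene and an R26R tdTomato reporter. The *Col2a1* promoter, which is active in chondrocytes, thus drove both the nuclear H2B-GFP label and the recombinase. All mice received doxycycline from P21 to P49, which stops new label from being made, and tamoxifen at P46 and P47, which turns on tdTomato. LRCs were the CD45-negative, tdTomato+ cells with high H2B-GFP and non-LRCs those with mid to low H2B-GFP, about 10000 and 50000 cells a library. Cells of several littermates were pooled in each experiment, so that the spread between experiments, and not between single mice, is behind each error given here. No untreated or mutant mice were among these libraries.

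The Hippo pathway restrains growth by keeping a pair of co-activators out of the nucleus. Upstream kinases of the MST family and their scaffolds activate LATS1 and LATS2, which phosphorylate YAP and TAZ, and the phosphorylated proteins are held in the cytoplasm or degraded. When LATS activity is low, as in cells under mechanical tension, YAP and TAZ enter the nucleus, bind TEAD factors and raise transcription of genes such as *Ctgf* and *Cyr61*. In cartilage the pathway is known for setting chondrocyte proliferation and maturation. Its activity is set largely by phosphorylation and location of the proteins, which transcript counts do not measure.

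TEAD factors bind a short DNA motif, and the letters GGAATG (or CATTCC on the other strand) were searched in the 250 bases before each RefSeq transcription start site on GRCm38.p6. Of the 10 genes, 7 had a start site in the RefSeq table, with 11 start sites in all, while *Tead1*, *Tead4* and *Ctgf* were not matched. The motif was present before 6 of the 11 start sites, belonging to 4 genes (*Yap1*, *Wwtr1*, *Tead3* and *Cyr61*), against 12.6% of all 32851 promoter windows of that length. Both *Wwtr1* windows overlap and hold the same match, and *Tead3* held 1 match before its start site 1, 2 matches before its start site 2 and 0 before its start site 3. The AP-1 motif TGANTCA and the CArG box, searched on both strands because *Ctgf* and *Cyr61* are also known as serum response genes, were present in 6.75% and 1.47% of all windows and in 0 of these 11. The windows printed here are those of both co-activators and of *Cyr61*, whose transcripts were higher in LRCs in all 3 experiments, and of the target gene *Axl*, the only gene of the 5 related pathway lists that passed the test. They are written 5′ to 3′ on the strand of the gene, with the motif in capitals.
Yap1: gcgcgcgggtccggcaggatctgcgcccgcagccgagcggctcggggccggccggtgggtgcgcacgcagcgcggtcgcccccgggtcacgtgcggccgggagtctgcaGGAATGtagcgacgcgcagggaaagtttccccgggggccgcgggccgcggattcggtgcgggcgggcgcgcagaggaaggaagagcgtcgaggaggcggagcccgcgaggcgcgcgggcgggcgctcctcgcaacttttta
Wwtr1: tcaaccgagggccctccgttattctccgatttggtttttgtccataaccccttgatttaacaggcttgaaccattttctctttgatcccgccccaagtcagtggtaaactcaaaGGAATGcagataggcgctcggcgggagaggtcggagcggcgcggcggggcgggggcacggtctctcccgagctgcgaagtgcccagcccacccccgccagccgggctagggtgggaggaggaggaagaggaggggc
Cyr61: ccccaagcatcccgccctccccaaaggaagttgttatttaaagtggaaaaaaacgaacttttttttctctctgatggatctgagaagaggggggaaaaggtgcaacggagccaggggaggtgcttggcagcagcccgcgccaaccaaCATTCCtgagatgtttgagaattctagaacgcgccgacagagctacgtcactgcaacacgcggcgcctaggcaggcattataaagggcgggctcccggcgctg
Axl: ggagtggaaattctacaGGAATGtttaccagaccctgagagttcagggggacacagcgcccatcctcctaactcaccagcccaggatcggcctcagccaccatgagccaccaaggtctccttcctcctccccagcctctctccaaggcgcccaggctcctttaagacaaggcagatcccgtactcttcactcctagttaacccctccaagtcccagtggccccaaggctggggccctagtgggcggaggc
The windows are chr9:8004597-8004846 for *Yap1*, chr3:57575911-57576160 for *Wwtr1* (start site 1), chr3:145649986-145650235 for *Cyr61* and chr7:25788734-25788983 for *Axl*, all on the minus strand. The motif began 141, 136, 103 and 233 bases before the start site, respectively. Whether these letters are bound was not measured.

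Total counts lay between 18943789 and 129559872, with the LRC library of experiment 2 the smallest. In it, 1731 of the tested genes had no count, compared with 4 to 365 elsewhere. The 10 chondrocyte markers examined were all tested and summed to between 82925 and 226223 CPM (counts scaled to library size, with TMM normalization) in LRCs and between 135904 and 237062 CPM in non-LRCs. The endothelial genes *Cdh5*, *Kdr* and *Emcn* had 0 counts in all 6 libraries. *Pecam1* was counted 43, 12 and 0 times in LRCs and 8, 26 and 12 times in non-LRCs. *Tek* was counted 6 times in the non-LRCs of experiment 1 and 0 times in each other library. Because these are bulk samples, fewer cells of a type and less RNA per cell cannot be told apart.

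None of the 9 tested genes of the group passed the test between LRCs and non-LRCs (edgeR quasi-likelihood test with the experiment as a block, Benjamini-Hochberg adjusted p below 0.05), against 1.28% of all genes tested (0.903% higher and 0.379% lower in LRCs). At an unadjusted p below 0.05, edgeR picked 1 of the 9, *Yap1*, against 18.4% of all genes (8.89% higher and 9.53% lower in LRCs). DESeq2 and limma-voom with the block each called 0 after adjustment. Over all genes, DESeq2 called 12.5% (6.24% higher and 6.28% lower) and limma-voom 1361 of 13728. The LRC and non-LRC values overlapped for all 9 genes, whereas they did not overlap for 18.7% of all genes (8.41% higher and 10.3% lower in LRCs). The direction was shared by all 3 experiments in 4 of the 9 genes, against 46.5% of all genes. *Yap1*, *Wwtr1* and *Cyr61* were higher in LRCs (20.4% of all genes did so), and *Tead1* was lower (26.1% of all genes did so). The median fitted log2 difference was 0.09 over the 9 genes and -0.10 over all genes tested.

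**Figure D1:**
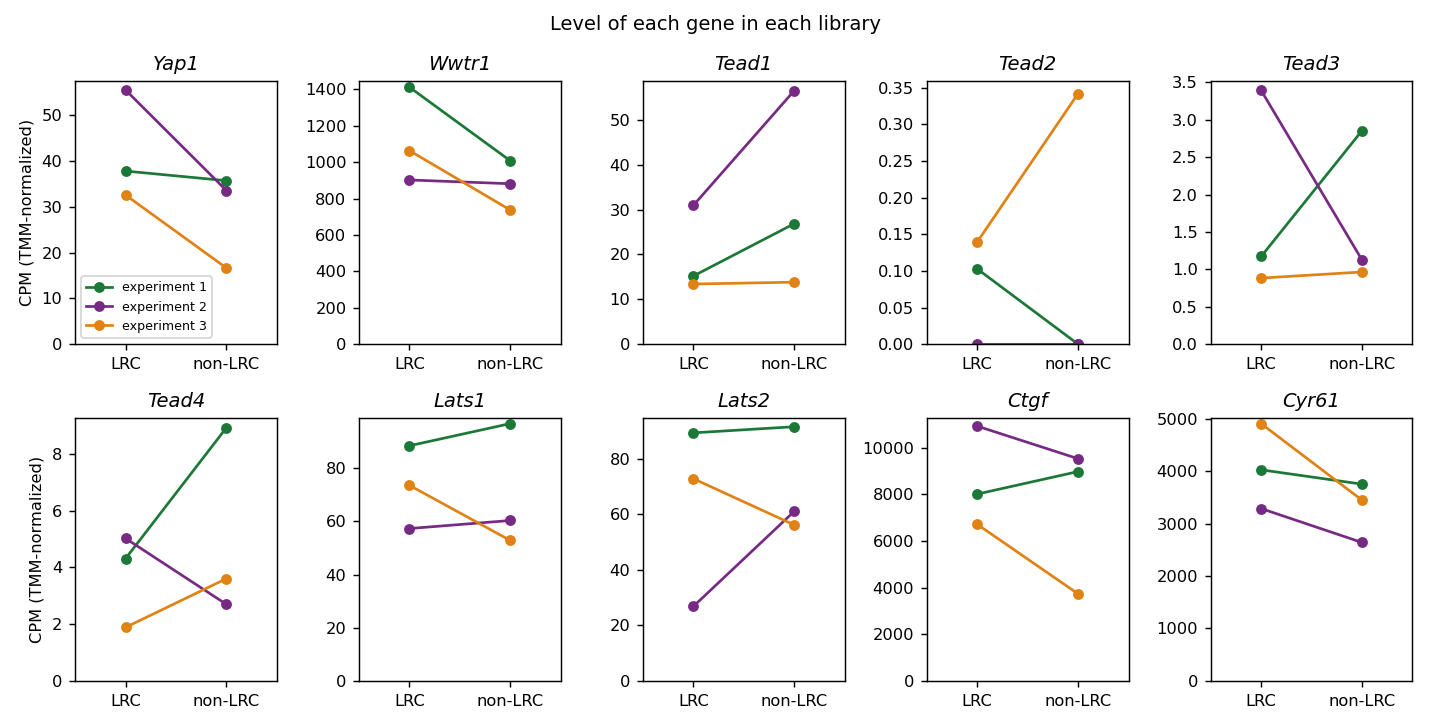
Level of each of the 10 genes in CPM (vertical axis, linear and starting at 0) in LRCs and non-LRCs, with 1 line for each of the 3 experiments. The lines of *Yap1*, *Wwtr1* and *Cyr61* all run down from LRC to non-LRC and those of *Tead1* all run up, while the lines of *Tead3*, *Tead4*, *Lats1*, *Lats2* and *Ctgf* do not all run the same way.

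The co-activators both stood higher in LRCs of each experiment, by amounts that did not pass the test. *Yap1* (chr9:7931999-8004596, minus strand), which binds TEAD factors but not DNA, was at 37.8, 55.5 and 32.6 CPM in the LRCs of experiments 1, 2 and 3 and at 35.7, 33.5 and 16.6 CPM in the non-LRCs. The difference was small in experiment 1 (0.08 on the log2 scale) and larger in experiments 2 and 3 (0.73 and 0.97), and the lowest LRC value lay below the highest non-LRC value. The mean was 41.9 ± 12.0 CPM in LRCs against 28.6 ± 10.4 in non-LRCs (s.d., *n*=3). The fitted log2 difference was 0.59 with a standard error (SE) of 0.23, a 95% interval from 0.02 to 1.16 and an adjusted p of 0.258 (edgeR). It ranged from 0.42 to 0.84 when each experiment was left out in turn.

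*Wwtr1* (chr3:57455649-57575910, minus strand) encodes TAZ, the close relative of YAP. Its level was 1412, 902 and 1063 CPM in the LRCs of the successive experiments and 1007, 881 and 737 CPM in their non-LRC partners. LRCs were thus higher in experiments 1 and 3, by a log2 difference of 0.49 and 0.53, and nearly level with non-LRCs in experiment 2 (0.03). Means were 1126 ± 260 CPM and 875 ± 135 CPM, and the fitted log2 difference was 0.35 (SE 0.16, 95% interval -0.05 to 0.75, edgeR adjusted p = 0.325). Per kilobase of exon, *Wwtr1* was the far more abundant of the co-activators: its level per kb exceeded that of *Yap1* by a ratio of 31.5 to 85.8 in the 6 libraries, lowest in the LRCs and highest in the non-LRCs of experiments 2 and 3, respectively. With the longest transcript in place of all exons the ratio was 18.3 to 49.8. On the per-kb scale *Yap1* made up between 1.15% and 3.08% of the summed co-activator transcripts.

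The TEAD factors, through which YAP and TAZ reach DNA, were all low, and none was higher in LRCs of all 3 experiments. *Tead1* (chr7:112679318-112906807, plus strand) was measured at 15.2, 30.9 and 13.4 CPM in LRCs and at 26.8, 56.5 and 13.8 CPM in non-LRCs. Within pairs, the log2 difference was -0.82 and -0.87 in experiments 1 and 2, with values of nearly the same size in experiment 3 (-0.04). Experiment 2 gave the highest value in both populations, so that the spread between experiments exceeded the difference between LRCs and non-LRCs. The fitted log2 difference was -0.58 (SE 0.25, 95% interval -1.19 to 0.02, edgeR adjusted p = 0.284).

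*Tead4* (chr6:128224288-128300823, minus strand), a TEAD factor best known from the early embryo and muscle, was at 4.31, 5.02 and 1.89 CPM in LRCs and at 8.92, 2.70 and 3.60 CPM in non-LRCs. LRCs were lower in experiments 1 and 3 and higher in experiment 2, with a fitted log2 difference of -0.39 (SE 0.60, edgeR adjusted p = 0.772) that lay between -0.99 and -0.024 with an experiment left out. *Tead3* (chr17:28331671-28350817, minus strand) was at 1.17, 3.39 and 0.88 CPM in LRCs and at 2.86, 1.13 and 0.97 CPM in non-LRCs. Its fitted log2 difference of 0.04 carried an SE of 0.92 (edgeR adjusted p = 0.987), and its sign turned when experiment 2 was left out (-0.73). The pairs differed by -1.26, 1.56 and -0.12 on the log2 scale, and the 95% interval ran from -2.22 to 2.30. *Tead2* (chr7:45215753-45233644, plus strand) was counted 12, 0 and 6 times in LRCs and 0, 0 and 17 times in non-LRCs. A count of 0 allowed up to 0.143 CPM in the LRCs of experiment 2, the value of 3 counts, and up to 0.0290 and 0.0785 CPM in the non-LRCs of experiments 1 and 2. Such limits cover counting error only.

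On the scale of CPM per kb, *Tead1* and *Tead4* together made up most of the TEAD transcripts in every library. *Tead1* contributed 44.6%, 54.5% and 59.1% of the family sum in the LRCs of experiments 1, 2 and 3 and 40.5%, 81.9% and 45.6% in the non-LRCs. *Tead4* contributed 47.6%, 33.4% and 31.3% in LRCs and 50.8%, 14.8% and 44.8% in non-LRCs. The share of *Tead1* was thus higher in LRCs of experiments 1 and 3 and lower in those of experiment 2, where the non-LRCs stood apart by their high *Tead1*. *Tead3* made up 3.30% to 12.1% and *Tead2* at most 3.20%. The ratio of *Tead1* to *Tead4* ran from 0.798 to 5.55 per kb of all exons, from 0.930 to 6.47 per kb of the longest transcript and from 3.01 to 20.9 in CPM with no length, so that which of them led in the LRCs of experiment 1 depended on the length used (0.935 per kb of all exons and 1.09 per kb of the longest transcript).

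**Figure D2:**
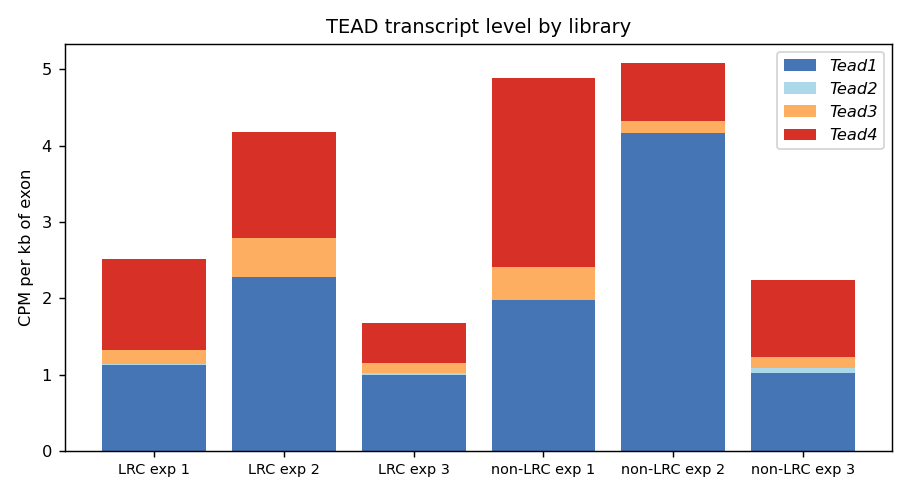
Stacked level of *Tead1*, *Tead2*, *Tead3* and *Tead4* (vertical axis, CPM per kb of exon, starting at 0) in each of the 6 libraries. *Tead1* and *Tead4* fill most of each bar, and *Tead1* reaches its largest share, 81.9%, in the non-LRCs of experiment 2.

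The LATS kinases, which phosphorylate YAP and TAZ, did not differ in a shared direction. *Lats1* (chr10:7681214-7716460, plus strand) was at 88.5, 57.4 and 73.6 CPM in LRCs and at 96.9, 60.4 and 52.9 CPM in non-LRCs. It was slightly lower in LRCs of experiments 1 and 2 and higher in experiment 3. The fitted log2 difference was 0.09 (SE 0.18, 95% interval -0.35 to 0.54, edgeR adjusted p = 0.829), and it turned to -0.081 without experiment 3.

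*Lats2* (chr14:57689662-57758388, minus strand), which is also known as a target of YAP, was at 89.3, 26.8 and 72.8 CPM in LRCs and at 91.5, 61.0 and 56.2 CPM in non-LRCs. The LRC library of experiment 2, the smallest library, held the lowest value. Its pair differed by -1.19 on the log2 scale, against -0.04 and 0.37 in experiments 1 and 3. The fitted log2 difference was -0.27 (SE 0.31, 95% interval -1.03 to 0.49, edgeR adjusted p = 0.694) and 0.17 without experiment 2. Per kb of exon, the ratio of *Lats1* to *Lats2* was between 0.899 and 1.01 in the other libraries and 2.04 in the LRCs of experiment 2. In the annotation (GENCODE vM21 on GRCm38), 41.2% of the 50-base stretches of *Lats2* transcripts also belonged to *Gm49361*, on the same strand and not a row of the count table.

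The target genes *Ctgf* and *Cyr61*, which encode secreted matricellular proteins of the CCN family, were among the most abundant transcripts of both populations. *Ctgf* (chr10:24595442-24598683, plus strand), known for its part in cartilage matrix production and angiogenesis of the growth plate, was at 8006, 10918 and 6709 CPM in LRCs and at 8971, 9521 and 3729 CPM in non-LRCs. LRCs were lower in experiment 1 and higher in experiments 2 and 3 (-0.16, 0.20 and 0.85 on the log2 scale), and the non-LRCs of experiment 3 held the lowest value of all libraries. The mean was 8544 ± 2155 CPM in LRCs against 7407 ± 3197 in non-LRCs. The fitted log2 difference was 0.29 (SE 0.23, 95% interval -0.26 to 0.84, edgeR adjusted p = 0.546), and between 0.038 without experiment 3 and 0.52 without experiment 1. Transcripts of this gene took 0.391% to 1.21% of the counts of a library. Of its 50-base stretches, 17.2% were shared with *Gm15270*, annotated on the opposite strand and not a row of the table. Whether counting used strand is not given in the sources used here.

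*Cyr61* (chr3:145646976-145649981, minus strand), a relative of *Ctgf* that acts through integrins, was at 4026, 3287 and 4906 CPM in LRCs and at 3753, 2641 and 3447 CPM in non-LRCs. LRCs were higher in each pair, by 0.10, 0.32 and 0.51 on the log2 scale, but the lowest LRC value lay below the highest non-LRC value. The fitted log2 difference was 0.31 (SE 0.16, 95% interval -0.07 to 0.69, edgeR adjusted p = 0.357). The motif in the promoter window printed above for *Cyr61* was also present in those of both co-activators and in 2 of the 3 windows of *Tead3*, which had no shared direction. *Tead1*, lower in LRCs of all experiments, had no window, so the motif could not be set against direction. The balance of *Ctgf* and *Cyr61* followed the experiment: per kb of exon, *Ctgf* exceeded *Cyr61* by a ratio of 1.403 in LRCs and 1.69 in non-LRCs of experiment 1 and by 2.34 and 2.54 in experiment 2, whereas in experiment 3 the ratio was 0.965 and 0.763. Per kb of the longest transcript the ratios of experiment 3 were 1.11 in LRCs and 0.877 in non-LRCs, so that the order in these LRCs turned with the length used.

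The 95% intervals of 4 of the 9 genes, *Wwtr1*, *Lats1*, *Ctgf* and *Cyr61*, lay wholly inside a 2-fold difference in either direction, as did those of 35% of all genes tested. The intervals of the other 5 reached beyond 2-fold, and those of 8 of the 9 genes included 0.

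**Figure D3:**
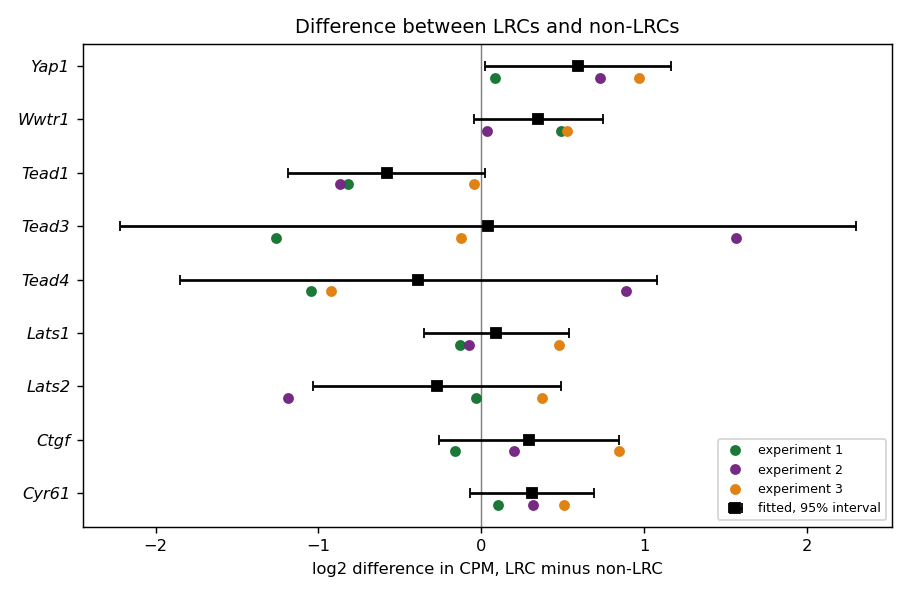
Difference in log2 CPM (LRC minus non-LRC, horizontal axis) of the 9 tested genes, with 1 point for each of the 3 experiments and the fitted edgeR value with its 95% interval as a black square and bar. All 3 points of *Yap1*, *Wwtr1* and *Cyr61* lie right of 0 and all 3 of *Tead1* left of it, and only the interval of *Yap1* (0.02 to 1.16) does not include 0.

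The order of the levels could be set only per length of exon. In LRCs the mean levels were 2986 ± 753 CPM per kb for *Ctgf* and 2017 ± 402 for *Cyr61*, places 5 and 8 among 13566 genes with a known length. *Wwtr1* followed at 235.5 ± 54.5 CPM per kb, in place 129. *Lats1* at 10.03 ± 2.14, *Lats2* at 9.03 ± 4.65 and *Yap1* at 4.53 ± 1.30 CPM per kb formed a middle tier. *Tead1* at 1.46 ± 0.71, *Tead4* at 1.04 ± 0.46, *Tead3* at 0.271 ± 0.204 and *Tead2* at 0.0169 ± 0.0151 CPM per kb came last. Neighbours whose library values overlapped in LRCs were *Ctgf* and *Cyr61*, *Lats1* and *Lats2*, *Lats2* and *Yap1*, and *Tead1* and *Tead4*. In non-LRCs *Ctgf* (2589 ± 1118) and *Cyr61* (1625 ± 285) held places 7 and 10 and *Wwtr1* (183.1 ± 28.3) place 181. Neighbours whose values overlapped in non-LRCs were *Ctgf* and *Cyr61*, *Lats2* and *Lats1*, *Yap1* and *Tead1*, and *Tead1* and *Tead4*. Per kb of the longest transcript, *Lats2* (12.1 ± 6.24 in LRCs) had a higher mean than *Lats1* (10.2 ± 2.16).

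**Figure D4:**
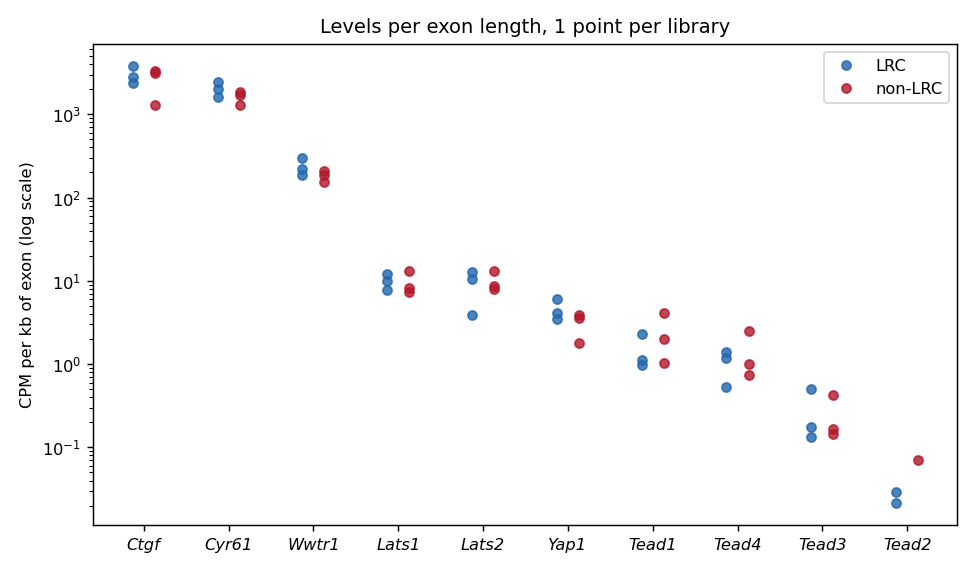
Level of each gene in CPM per kb of exon (vertical axis, log scale), with 1 point per library for LRCs and non-LRCs. *Ctgf*, *Cyr61* and *Wwtr1* lie well above the other genes, and the libraries of *Tead2* with 0 counts cannot be drawn on a log axis.

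The upstream genes of the pathway, 22 kinases, scaffolds and adaptors that act before or beside LATS, were all tested, and 0 passed in either direction (median log2 difference 0.02, against -0.10 over all genes). At an unadjusted p below 0.05, edgeR picked 2 of them, both higher in LRCs, against 8.89% of all genes, and DESeq2 with the block called 2 higher after adjustment, against 6.24% of all genes. *Frmd6*, a FERM-domain scaffold upstream of LATS, was at 359, 177 and 285 CPM in LRCs and at 230, 132 and 172 CPM in non-LRCs. It was higher in LRCs of every pair although the groups overlapped (fitted log2 difference 0.60, SE 0.14, edgeR adjusted p = 0.104). The giant cadherins *Dchs1* and *Fat4*, a ligand and receptor pair, averaged 5.47 ± 1.91 and 11.7 ± 0.968 CPM in LRCs against 1.33 ± 1.16 and 6.35 ± 3.75 CPM in non-LRCs. Their groups did not overlap, but their adjusted p values were 0.204 and 0.288 (edgeR), and *Fat4* was nearly level in experiment 1 (log2 difference 0.03). Of the 22 genes, 2 were without overlap and higher in LRCs and 2 lower, against 8.41% and 10.3% of all genes. *Stk38*, a kinase related to LATS, averaged 21.3 ± 2.09 CPM in LRCs against 29.5 ± 4.99 in non-LRCs without overlap (edgeR adjusted p = 0.300). The core kinases *Stk3* and *Stk4* had fitted log2 differences of 0.02 and -0.09, and these were looked up by name after the values were seen.

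Of 18 proteins that bind, hold or degrade YAP and TAZ or share TEAD factors with them, 15 were tested and 0 passed (median log2 difference 0.27). edgeR picked 3 at an unadjusted p below 0.05 and DESeq2 called 3 after adjustment, in both cases 2 higher and 1 lower in LRCs (all genes: 8.89% higher and 9.53% lower by edgeR, 6.24% and 6.28% by DESeq2). The TEAD cofactor genes *Vgll1* and *Vgll2* had 0 counts in all libraries, and *Vgll3* was too low to be tested. The 14-3-3 genes, whose proteins hold phosphorylated YAP in the cytoplasm, went in different directions: *Ywhah* averaged 239 ± 29.2 CPM in LRCs against 350.1 ± 39.4 in non-LRCs (log2 difference -0.55, edgeR adjusted p = 0.119), whereas *Ywhaz* averaged 1460 ± 122 and 1148 ± 314 CPM (0.38, edgeR adjusted p = 0.291). *Limd1*, a LIM-domain protein that restrains LATS, was at 266, 236 and 187 CPM in LRCs and at 185, 114 and 144 CPM in non-LRCs. Every LRC value lay above every non-LRC value (log2 difference 0.65, SE 0.18, edgeR adjusted p = 0.137). Of the 15 tested genes, 2 were without overlap and higher in LRCs and 1 lower, against 8.41% and 10.3% of all genes. *Csnk1d*, a casein kinase that marks YAP for degradation, averaged 138 ± 34.3 and 99.6 ± 32.4 CPM (0.50, edgeR adjusted p = 0.153).

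Among 21 further genes often used as YAP and TAZ targets, of which *Amotl2* and *Ptpn14* also stand in the list above, 20 were tested and 1 rose in LRCs (0.903% of all genes did). Their median log2 difference was 0.12. The gene that rose was *Axl* (chr7:25757273-25788705, minus strand), the receptor tyrosine kinase for GAS6. It was at 122, 68.5 and 78.9 CPM in LRCs and at 23.7, 18.0 and 17.3 CPM in non-LRCs. Every LRC value lay far above every non-LRC value, with a fitted log2 difference of 2.16 (SE 0.18, edgeR adjusted p = 0.0160). The call was lost when the experiment was not a block (edgeR adjusted p = 0.0670) and was kept under the other 9 of 10 alternatives. Over all 10, run with edgeR, DESeq2 or limma-voom, the adjusted p ran from 6.08e-24 to 0.0670. Other targets did not pass. *Fjx1* was at 43.3, 32.2 and 27.6 CPM in LRCs and at 14.6, 11.5 and 14.7 CPM in non-LRCs, without overlap (log2 difference 1.32, SE 0.23, edgeR adjusted p = 0.0628), and was called under 4 of the 10 alternatives. *Ccdc80*, a secreted matrix protein, and *Birc5* (survivin), which acts in mitosis, lay the other way. *Ccdc80* averaged 345 ± 104 CPM in LRCs against 587 ± 199 in non-LRCs (-0.77, edgeR adjusted p = 0.0887) and *Birc5* 15.4 ± 11.6 and 30.4 ± 13.3 CPM (-1.14, edgeR adjusted p = 0.0911). *Areg* was too low to be tested. Of the 20 tested targets, 2 were without overlap and higher in LRCs and 1 lower, against 8.41% and 10.3% of all genes. At an unadjusted p below 0.05, edgeR picked 3 targets higher and 2 lower (8.89% and 9.53% of all genes), and DESeq2 called 3 higher and 2 lower after adjustment (6.24% and 6.28% of all genes).

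The other CCN genes, relatives of *Ctgf* and *Cyr61*, had a median log2 difference of -0.38, and 0 of the 4 passed. *Wisp1* was at 115, 135 and 133 CPM in LRCs and at 283, 284 and 188 CPM in non-LRCs. All LRC values lay below all non-LRC values (log2 difference -0.96, SE 0.19, edgeR adjusted p = 0.0808). *Wisp3* also did not overlap, with means of 18.8 ± 4.99 and 27.6 ± 5.82 CPM (-0.57, edgeR adjusted p = 0.255). Over all genes, 10.3% were lower in LRCs without overlap. *Wisp2* averaged 30.1 ± 9.32 and 33.4 ± 3.29 CPM and *Nov* 9.05 ± 4.13 and 7.03 ± 1.36 CPM, each with overlapping values. At an unadjusted p below 0.05, edgeR picked 2 of the 4, *Wisp1* and *Wisp3*, both lower in LRCs (9.53% of all genes were), and DESeq2 called *Wisp1* (6.28% of all genes were lower).

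**Figure D5:**
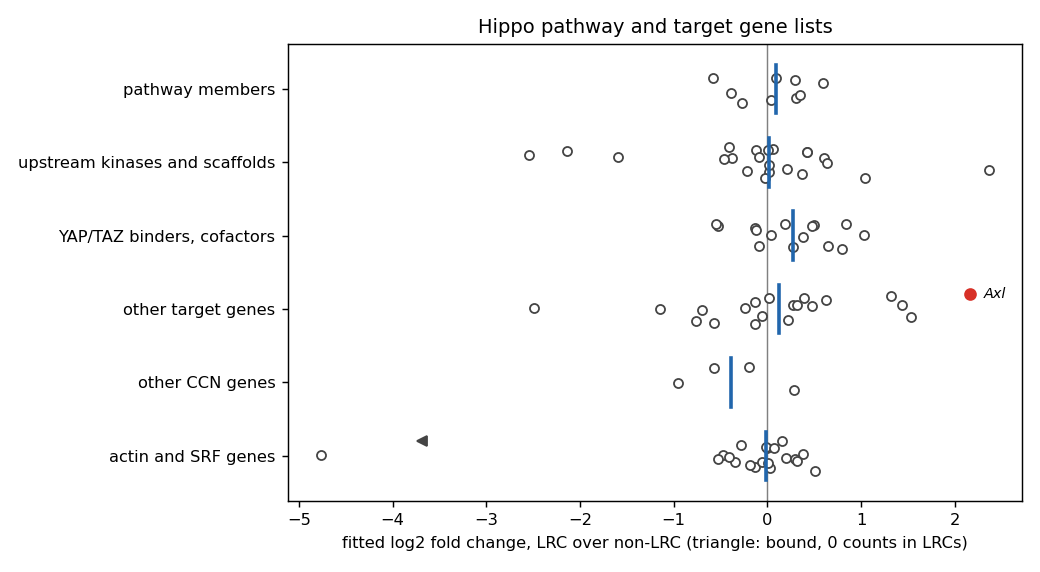
Fitted log2 difference (LRC over non-LRC, horizontal axis) of each tested gene in the group and in 5 related lists, with the median of each list as a blue line, the only gene that passed the test, *Axl* (2.16), in red and a bound for *Actg2*, which had 0 counts in LRCs, as a triangle. The list medians lie between -0.38 and 0.27.

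Actin and serum response factor genes were examined because they respond to the same cytoskeletal tension as YAP and TAZ. Of 21 genes, all were tested and 0 passed (median log2 difference -0.02), with 2 picked by edgeR at an unadjusted p below 0.05 and 2 called by DESeq2, all lower in LRCs, against 9.53% and 6.28% of all genes. *Rhoa*, the small GTPase that drives actin tension, averaged 431 ± 125 CPM in LRCs against 600.1 ± 175 in non-LRCs (-0.47, edgeR adjusted p = 0.208). *Rock1*, the kinase it activates, averaged 106 ± 15.3 and 85.7 ± 17.3 CPM (0.32, edgeR adjusted p = 0.310). The smooth muscle actin gene *Actg2* had 0 counts in all 3 LRC libraries and 1.02 ± 0.461 CPM in non-LRCs, at least 12.8-fold lower against 3 counts in each LRC library (edgeR adjusted p = 0.155). With *Actg2* at that bound, the median of the list was still -0.02. *Acta2*, at 0.127 ± 0.213 and 1.08 ± 0.726 CPM, was likewise near the limit of detection (edgeR adjusted p = 0.323).

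Other gene groups moved along with the comparison. Of 11 genes known from superficial articular and synovial cells, 5 rose in LRCs (*Abi3bp*, *Thbs4*, *Prg4*, *Cilp2* and *Cilp*) and 0 fell, against 0.903% of all genes higher and 0.379% lower, with a summed level of 3913 to 7127 CPM in LRCs and 2990 to 3959 CPM in non-LRCs. *Prg4*, which encodes lubricin, was at 1017, 109.5 and 869 CPM in LRCs and at 29.5, 3.22 and 6.36 CPM in non-LRCs (edgeR adjusted p = 0.0175). At an unadjusted p below 0.05, edgeR picked 8 of the 11, all higher in LRCs (8.89% of all genes). DESeq2 called 8, also all higher (6.24% of all genes), and the median log2 difference was 2.05. Of 10 hypertrophic markers, 0 rose and 2 fell (0.379% of all genes did), *Panx3* (log2 difference -4.01, edgeR adjusted p = 0.0177) and *Mef2c* (-2.35, edgeR adjusted p = 0.0177), with sums of 959 to 2103 CPM in LRCs and 1202 to 3157 CPM in non-LRCs. At an unadjusted p below 0.05, edgeR picked 6 of them lower and 1 higher (9.53% and 8.89% of all genes). DESeq2 called 6, all lower (6.28% of all genes), and the median log2 difference was -1.09. Of the osteoblast markers, 7 of 9 were tested, and *Col1a1* rose (2.38, edgeR adjusted p = 0.0151) while *Smpd3* fell (-1.85, edgeR adjusted p = 0.0189), again beside 0.903% and 0.379% of all genes, with sums of 1458 to 3337 and 1892 to 2802 CPM. *Col1a1* is also the locus of the H2B-GFP cassette used for sorting, and the part of the cassette in its counts was not tested. *Col1a2* was not called (0.39, edgeR adjusted p = 0.386). At an unadjusted p below 0.05, edgeR picked 3 osteoblast markers lower and 1 higher (9.53% and 8.89% of all genes). DESeq2 called 3 lower and 1 higher (6.28% and 6.24% of all genes). By in situ hybridization, the paper also found *Prg4* mRNA at a low level in the resting zone. It reported that nearly all tdTomato+ cells freed by its digestion were growth plate chondrocytes. The part of these gene groups, or of other cell types, in the values of *Yap1*, *Axl* and the other genes above was not tested.

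Of 25 immediate early and dissociation genes, which respond within minutes to cell handling, 2 rose in LRCs and 0 fell (median log2 difference 0.24), against 0.903% of all genes higher and 0.379% lower. These were the heat shock gene *Hspa1a* (65.1 ± 53.0 against 7.32 ± 5.39 CPM, log2 difference 2.89, edgeR adjusted p = 0.0275), which has a near-identical copy in *Hspa1b*, and the orphan nuclear receptor gene *Nr4a1* (78.6 ± 33.1 against 34.8 ± 11.1 CPM, 1.15, edgeR adjusted p = 0.0489). Over the 25 genes, the summed level was 6390 to 8117 CPM in LRCs and 4917 to 7130 CPM in non-LRCs. At an unadjusted p below 0.05, edgeR picked 7 of them, all higher in LRCs, against 8.89% of all genes. DESeq2 called 6 after adjustment, also all higher, against 6.24% of all genes. In all 3 experiments, 11 were higher and 1 lower in LRCs (20.4% and 26.1% of all genes). The part of these 25 genes in the levels of *Ctgf* and *Cyr61* was not tested. Of 13 muscle, fibroblast and endothelial markers, 6 were tested and 0 passed. edgeR picked 2 at an unadjusted p below 0.05 and DESeq2 called 2, all higher in LRCs, against 8.89% and 6.24% of all genes. Of 11 leukocyte and erythroid markers, 6 were tested, with 0 picked or called. None of the 10 chondrocyte markers passed the edgeR test. In all 3 experiments, 8 were lower and 1 higher in LRCs (26.1% and 20.4% of all genes). edgeR picked 5 and DESeq2 called 3, all lower in LRCs, against 9.53% and 6.28% of all genes. The median log2 difference of the chondrocyte markers was -0.50. Of these, *Matn1* and *Hapln1*, genes of cartilage matrix proteins, averaged 21.1 ± 13.1 and 3729.6 ± 817 CPM in LRCs and 38.9 ± 22.5 and 6111 ± 450 CPM in non-LRCs. *Pdgfra* and *Dpt*, known from fibroblasts, averaged 38.1 ± 14.5 and 10.99 ± 6.23 CPM in LRCs and 9.25 ± 5.14 and 2.07 ± 1.45 CPM in non-LRCs (edgeR adjusted p = 0.0508 and 0.118). The leukocyte genes *Cd68* and *S100a9* averaged 11.9 ± 9.61 and 1.23 ± 1.30 CPM in LRCs and 7.39 ± 3.07 and 0.725 ± 0.804 CPM in non-LRCs, while *Ptprc* (CD45) had 10 counts in the LRCs of experiment 3 and 0 in each other library.

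The genes whose pattern over the 6 libraries was most like that of a member were found by Pearson's r of log2 CPM among 7823 genes of a mean of at least 10 CPM, given as a description over libraries that differ in depth. For *Yap1* these were *Zfand2a* (r = 0.999), *Cd44* (0.987) and *Tnfrsf1a* (0.984). *Cd44*, a hyaluronan receptor, stood at 597, 760.4 and 418 CPM in LRCs and at 482, 432 and 198 CPM in non-LRCs, with the same order of libraries as *Yap1* in LRCs and in non-LRCs. It also belongs to the superficial and synovial genes above. For *Ctgf* they were *Wdr26* (0.998), the proteoglycan gene *Bgn* (0.992) and *Gnaq* (0.985). *Bgn* was at 3065, 4071 and 2479 CPM in LRCs and at 3579, 3288 and 1385 CPM in non-LRCs, and like *Ctgf* it was lowest in the non-LRCs and highest in the LRCs of experiments 3 and 2, respectively. For *Cyr61* they were *4930402H24Rik* (0.986), the transcription factor gene *Klf3* (0.982) and *Gm16515* (0.982). All these genes were picked for their likeness to a member, so a shared order of libraries is no separate result.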

How the data were processed

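RNA was measured in 6 libraries, 3 of LRCs and 3 of non-LRCs, grouped and paired by experiment from the sample labels. The submitters' processing notes name TopHat2 2.0.13 and Bowtie2 2.2.1, and the authors counted non-ambiguously mapped 50-base single-end reads per gene with HTSeq on mm10 (GRCm38). The gene annotation is not given in the sources used here. The authors deposited raw counts per gene, without normalization, and all tests used these. The authors also deposited these counts scaled by DESeq2 size factors, a normalized signal (recomputed here, with 0 values off by a relative difference above 1e-06). Their deposited rlog table, on a log2 scale, gave no result here. All columns were mapped to a sample. Reads amplified without molecular identifiers are not independent molecules.

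Tests were run with edgeR 4.0.16 under R 4.3.3: filterByExpr (minimum count 10, minimum total count 15), TMM normalization, the experiment as a block, the quasi-likelihood test with a prior count of 0.125, and Benjamini-Hochberg adjustment over all 13728 genes tested. A call was an adjusted p below 0.05. SE values are the log2 difference divided by the square root of F. A prior count of 2 was added for log2 CPM. The block follows the paired model of the study's methods. Deviations from the group means correlated within each experiment (Pearson r = 0.197, 0.288 and 0.336 across genes). Between libraries of different experiments r ran from -0.274 to 0.128. Deviations sum to 0 within each group, so these r values are not independent. Libraries differed by 192.4 or more in chi-square per gene, so none was a copy. The members and gene lists were chosen with earlier results of these data known. Named genes were all 10 members. From each other list they were every gene called and those of smallest unadjusted p, up to 4 per pathway list and up to 2 per marker or immediate early list. The 3 genes most correlated with *Yap1*, *Ctgf* and *Cyr61* were named too. Exon lengths, positions and shared 50-base stretches came from GENCODE vM21, with 13566 of the genes tested or in the group having a length, and promoters from RefSeq. Alternatives were no block, DESeq2 1.42.0 and limma-voom (limma 3.58.1) with the block, other scalings and filters, each experiment left out, and other lengths. The test was tried on simulated counts for this comparison: edgeR with the block, on 13190 genes, recovered a median of 62.4% of 4-fold and 26.4% of 2-fold changes with 8.26% of calls false. Only a small set of well-counted genes was changed in each simulation, so these shares need not hold for the measured counts.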

Additional observations from a re-analysis of the deposited data

How the results depend on the processing

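Under all 10 alternatives 0 of the members were called. Over all genes, 176 were called with the block and 1 with no block. The call count was 1695 with DESeq2, 1361 with limma-voom, 751 with at least 10 counts in every library, and from 35 (without experiment 1) to 782 (without experiment 2) with an experiment left out. In the 5 related lists (80 genes), 1 gene was called with the block, against 1.28% of all genes, and 0 without it. DESeq2 called 13 of the list genes, against 12.5% of all genes, and limma-voom 10, against 1361 of 13728 genes. With at least 10 counts in every library 6 were called, against 751 over all genes. With an experiment left out 1 to 3 were called, against 35 to 782 over all genes. In simulated data for this comparison 37.4% of DESeq2 calls and 14.05% of limma-voom calls were false. These simulations changed only a small set of well-counted genes. The false share depends on how many genes differ, so it cannot be carried over to the call counts above. The pairing changed no call among the members. The sign of the log2 difference of *Tead3* turned with limma-voom (-0.58). With an experiment left out, the log2 difference ranged across 0 for 6 genes: *Tead3* from -0.73 to 0.73, *Lats2* from -0.58 to 0.17 and *Nov* from -0.056 to 0.59, their signs turning without experiment 2, and *Lats1* from -0.081 to 0.20, *Wisp2* from -0.34 to 0.0011 and *S100a9* from -0.21 to 2.03, their signs turning without experiment 3. The cause was not tested, other than that fewer libraries entered. *Tead2* had too few counts to be tested. In the simulated data, edgeR with the block recovered 26.4% of 2-fold changes. Without a stated strand setting, *Ctgf* and *Gm15270* cannot be told apart where they overlap.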
